A study of Caenorhabditis elegans with 6 samples.

Results

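The caenopore genes described here are 10 members of the spp (saposin-like protein) family of Caenorhabditis elegans: spp-1, spp-2, spp-3, spp-5, spp-8, spp-9, spp-10, spp-12, spp-14 and spp-18. The name caenopore genes is used here as a label for all 10, whether or not pore formation is known for each. They were chosen by gene symbol, and each matched 1 of the 46778 genes in the deposited expression values. The annotation of the WBcel235 genome names 31 spp genes, of which 30 were in the values, so 20 other spp genes could be set beside these 10. RNA was sequenced from whole wild type (N2) worms harvested at the L4 stage after culture at 20 °C from synchronized L1 larvae. In 3 libraries the worms were fed HT115 bacteria labelled let-607 RNAi, a culture that the study diluted with the vector control, and in 3 libraries they were fed HT115 bacteria with the empty vector L4440 (control RNAi). All 6 libraries therefore come from worms raised on HT115 bacteria and without a pathogen. let-607 encodes a transcription factor related to mammalian CREBH, and the comparison asks which genes depend on it.

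Saposin-like proteins fold into a compact bundle of helices held together by disulfide bonds and bind or disturb lipid membranes. In the worm, those that form pores in bacterial membranes are called caenopores. The intestine is the organ in which the best studied caenopores are made, where they take part in killing the bacteria that the worm eats and in limiting bacteria that survive in the gut. Caenopores resemble the amoebapores of protozoa and the granulysin and NK-lysin of mammalian lymphocytes. Some spp genes are known targets of stress and immune pathways in the worm, including that of DAF-16.

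Expression is given as FPKM, in which the fragments of a gene are divided by its length and by the fragments mapped in that library. The groups were compared with limma, a linear model with moderated statistics, on log2(FPKM + 0.1) for the 15453 genes that averaged 0.5 FPKM or more. To pass, a gene needed a change of more than 2-fold (beyond 1 or -1 on the log2 scale) together with a p-value under 0.1 after Benjamini-Hochberg adjustment. Every log2 fold change is the libraries labelled let-607 RNAi minus the control RNAi libraries, on the log2(FPKM + 0.1) scale. Of all genes tested, 579 (3.75%) passed as higher and 216 (1.40%) passed as lower. The share of passing genes that were higher was 72.8%, against 76.7% after rescaling to TPM, 63.5% after median-of-ratios scaling and 58.4% with quantile normalization. Over all genes tested the log2 fold change had a median of 0.12, so each member is also given relative to that median. The depth of the libraries is unknown, since the values hold no counts. The mRNA of let-607 itself (WBGene00002783) was not lower in libraries labelled let-607 RNAi, with 71.0, 76.2 and 77.9 FPKM, against 69.1, 57.1 and 57.3 FPKM in the control RNAi libraries. The difference on the log2 scale was 0.30 (standard error, SE, 0.08, limma adjusted p = 0.034). The knockdown that the labels name is therefore not visible in this value, and each direction below is that of the libraries as labelled.

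Of the 10 caenopore genes, 8 were tested. With limma, 2 passed as higher in the worms labelled let-607 RNAi (25.0% of those tested, against 3.75% of all genes tested) and none as lower (against 1.40%). At an unadjusted p under 0.05 from limma, 3 were lower (37.5%, against 11.8% of all genes tested) and 3 were higher (37.5%, against 32.7%). The 2 that passed as higher were spp-18 and spp-2. A further 3 members, spp-1, spp-3 and spp-5, were lower with adjusted p-values under 0.1 from limma but by less than 2-fold. The remaining 3, spp-8, spp-10 and spp-14, had log2 fold changes between -0.06 and 0.20. spp-9 and spp-12 were listed at or near 0 and were not tested. At an adjusted p under 0.1 with no minimum fold change, 3 of the 8 (37.5%) were lower, where 11.4% of all genes tested were, and 3 of the 8 (37.5%) were higher, where 31.7% of all genes tested were. In either direction these were 6 of the 8, where 43.0% of all genes tested were. The groups did not overlap for these same 6 members, 3 in each direction, where 13.4% of all genes tested lay entirely below and 35.7% entirely above the control RNAi libraries. The median log2 fold change of the 8 was -0.03, against 0.12 over all genes tested, and the values ranged from -0.84 to 1.51. For any single gene the two-sided exact permutation test over libraries cannot give a p below 0.1 with 3 libraries against 3, and it gave 0.1 for each of the 6 members without overlap.

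**Figure D1:**
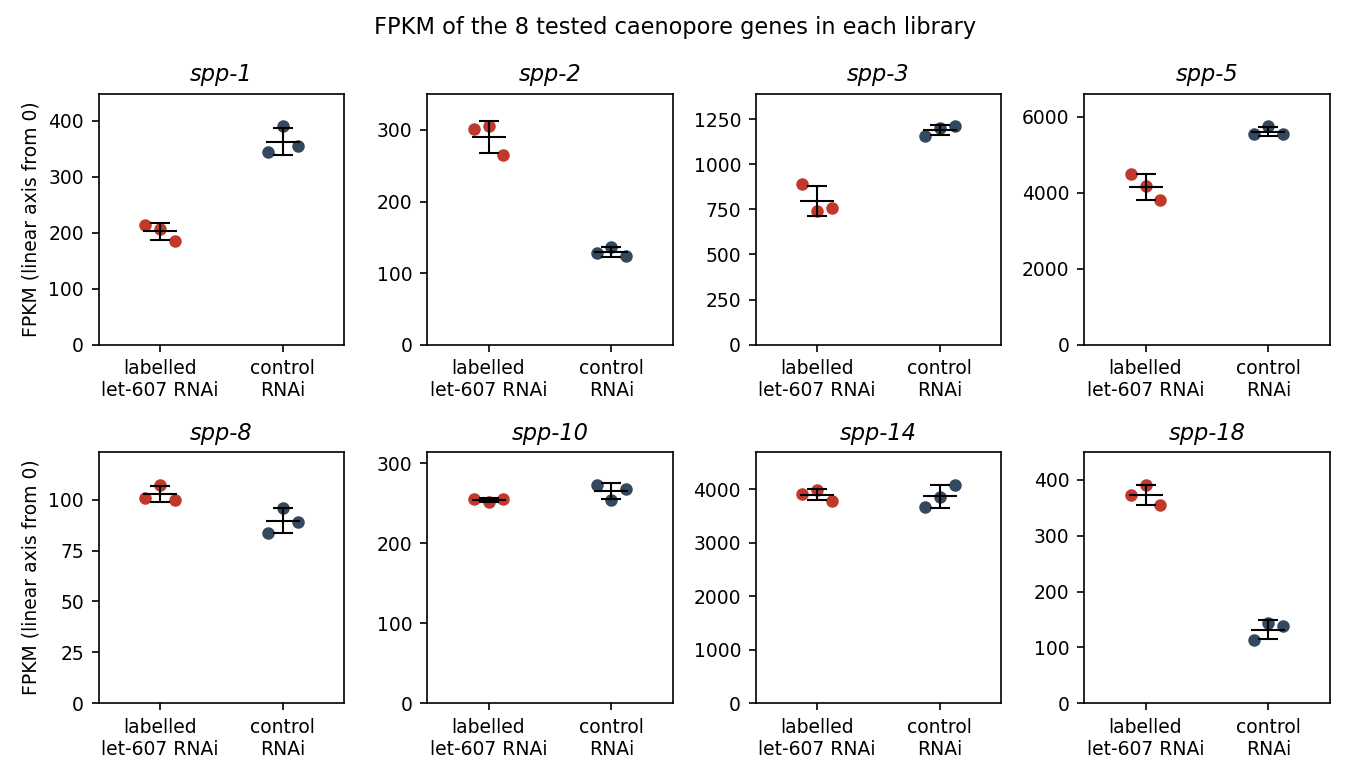
FPKM of the 8 tested caenopore genes in each library, with 3 libraries labelled let-607 RNAi on the left of each panel and 3 control RNAi libraries on the right. Points are libraries, bars are the mean and SD, and each linear axis starts at 0. spp-2 and spp-18 lay higher and spp-1, spp-3 and spp-5 lower in every library labelled let-607 RNAi, and the groups overlapped for spp-10 and spp-14.

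spp-5 encodes caenopore-5, a pore-forming peptide of the intestine that kills bacteria and whose loss lets bacteria accumulate in the gut. It lies on the minus strand of chromosome X (7319937 to 7320354, WBGene00004990). Its expression was 4495, 4178 and 3809 FPKM in libraries labelled let-607 RNAi, against 5551, 5753 and 5539 FPKM in the control RNAi libraries. Every library labelled let-607 RNAi lay below every control library, and the spread was wider in libraries labelled let-607 RNAi, with 4161 ± 343 FPKM against 5614 ± 120.1 FPKM (SD, n = 3 each). The log2 fold change was -0.44 (SE 0.06, 95% interval -0.58 to -0.29, limma adjusted p = 0.00229), or -0.56 relative to the median over all tested genes. spp-5 was the most abundant member in both groups and the 49th most abundant of all genes tested by mean FPKM.

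spp-3, which encodes a pore-forming and antimicrobial caenopore, lies on the minus strand of chromosome X (7314969 to 7315353, WBGene00004988). It had 892, 738 and 756 FPKM in libraries labelled let-607 RNAi, against 1158, 1201 and 1210.2 FPKM in the control RNAi libraries. Here the first library labelled let-607 RNAi was the closest to the controls, and the groups did not overlap. The means were 795 ± 84.5 and 1190 ± 27.9 FPKM (SD, n = 3 each), which gave a log2 fold change of -0.59 (SE 0.07, 95% interval -0.76 to -0.41, limma adjusted p = 0.00151). Relative to the median over all tested genes it was -0.71.

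spp-1 encodes caenopore-1, a pore-forming peptide whose gene is known to be activated by DAF-16 when insulin signaling is reduced. It lies on chromosome III from 10355098 to 10355668 on the minus strand (WBGene00004986). Its expression was 214, 207 and 186 FPKM in libraries labelled let-607 RNAi, against 343, 389.8 and 354 FPKM in the control RNAi libraries. The groups were far apart relative to their spread, with 202 ± 14.6 FPKM against 362 ± 24.3 FPKM (SD, n = 3 each). This was the lowest log2 fold change among the 8 tested members, -0.84 (SE 0.07, 95% interval -1.01 to -0.68, limma adjusted p = 0.000301), which did not reach the fold change of 2. Relative to the median over all tested genes it was -0.97, and 3.24% of all genes tested had a smaller log2 fold change. The exons of spp-1 share 19 bp (3.64% of its exonic length) with those of T07C4.3 on the opposite strand, and whether the counting used strand is not given in the sources used here. T07C4.3 had a log2 fold change of 0.19, opposite in sign to that of spp-1.

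spp-18 had the largest increase among the 8 tested members. It lies on chromosome IV from 9593712 to 9594413 on the plus strand (WBGene00005003). It had 372, 391 and 355 FPKM in libraries labelled let-607 RNAi, against 112, 144 and 139 FPKM in the control RNAi libraries. The lowest library labelled let-607 RNAi was thus above the highest control library by more than the range within either group. The means were 373 ± 17.96 and 132 ± 17.1 FPKM (SD, n = 3 each), a ratio of 2.83. Its log2 fold change was 1.51 (SE 0.10, 95% interval 1.28 to 1.74, limma adjusted p = 0.000104), or 1.38 relative to the median over all tested genes. Of all genes tested, 2.82% had a larger log2 fold change.

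spp-2 lies on the minus strand of chromosome X (7315995 to 7316818, WBGene00004987). Its expression was 301, 305 and 265 FPKM in libraries labelled let-607 RNAi, against 129, 137 and 124 FPKM in the control RNAi libraries. All 3 libraries labelled let-607 RNAi lay well above the controls, with 290.3 ± 22.1 FPKM against 129.8 ± 6.76 FPKM (SD, n = 3 each) and a ratio of 2.24. The log2 fold change was 1.16 (SE 0.07, 95% interval 1.00 to 1.32, limma adjusted p = 7.6e-05), or 1.03 relative to the median over all tested genes. The calls of spp-2 and spp-18 held under every pseudocount, filter, scaling and left-out library that was tried, with log2 fold changes from 1.04 to 1.22 for spp-2 and from 1.38 to 1.58 for spp-18.

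spp-14 lies on the plus strand of chromosome X (7725979 to 7726383, WBGene00004999) and came next after spp-5 in abundance in both groups. Its range overlapped that of spp-5 only in libraries labelled let-607 RNAi. It had 3909, 3994 and 3791 FPKM in libraries labelled let-607 RNAi, against 3664, 3861 and 4086 FPKM in the control RNAi libraries. The libraries labelled let-607 RNAi lay within the range of the controls. The log2 fold change was 0.01 (SE 0.05, limma adjusted p = 0.872), with a 95% interval of -0.10 to 0.12, and its sign turned to -0.11 after median-of-ratios scaling.

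spp-10 and spp-8 are neighbors on chromosome IV, on the plus strand and 1007 bp apart with no other protein-coding gene between them. spp-10 (WBGene00004995, 8477180 to 8480656) is related to mammalian prosaposin, the precursor of the lysosomal saposins that assist in sphingolipid breakdown. Its expression was 255, 251 and 255 FPKM in libraries labelled let-607 RNAi, against 273, 254 and 268 FPKM in the control RNAi libraries. The groups overlapped, with a log2 fold change of -0.06 (SE 0.04, 95% interval -0.15 to 0.03, limma adjusted p = 0.241), and median-of-ratios scaling moved it to -0.19 (limma adjusted p = 0.0102). spp-8 (WBGene00004993, 8481664 to 8483621) had 100.7, 107 and 100.1 FPKM in libraries labelled let-607 RNAi, against 83.7, 96.0 and 89.2 FPKM in the control RNAi libraries. The lowest library labelled let-607 RNAi was only just above the highest control library. Its log2 fold change was 0.20 (SE 0.06, 95% interval 0.05 to 0.34, limma adjusted p = 0.0446) and 0.07 relative to the median over all tested genes. After median-of-ratios scaling it was 0.08 (limma adjusted p = 0.408), so the difference of spp-8 rests on the scaling between libraries. With 1 library left out, the limma adjusted p of spp-8 lay between 0.0255 and 0.137, at 0.137 without the second library labelled let-607 RNAi and at 0.107 without the third control RNAi library.

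spp-9 and spp-12 gave no comparison. spp-9 (WBGene00004994, chromosome X from 11487784 to 11488203), known as a gene that the DBL-1 BMP-like pathway represses, was listed at 0.54 FPKM in the first library labelled let-607 RNAi and at 0 in the other 5 libraries. spp-12 (WBGene00004997, chromosome V from 13889816 to 13890327), which is known from pharyngeal neurons and takes part in the defense against Bacillus thuringiensis, was listed at 0 in all 6 libraries. A value of 0 in such a table can be a failed estimate, and it was not read as absence of the transcript.

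**Figure D2:**
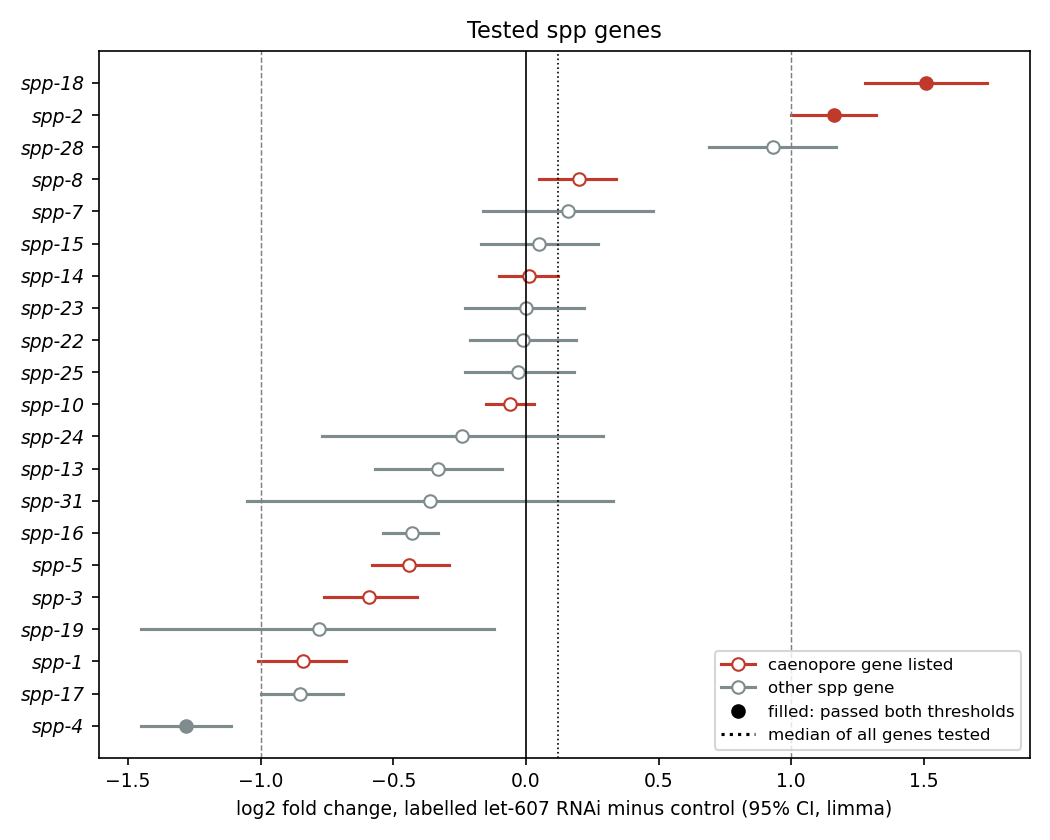
Log2 fold change (libraries labelled let-607 RNAi minus control RNAi, with the 95% interval from limma) of the 21 tested spp genes, 8 of them caenopore genes described here (red) and 13 other spp genes (grey). Filled points passed both thresholds, the dashed lines mark -1 and 1, and the dotted line is the median of all genes tested, 0.12. The values run from -1.28 for spp-4 to 1.51 for spp-18.

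The annotation divides the 10 genes by structure. A single intron and between 343 and 522 bp of exons were found in spp-1, spp-2, spp-3, spp-5, spp-9, spp-12 and spp-14. spp-18 had up to 4 exons and 466 bp, while spp-8 and spp-10 had up to 9 and 11 exons with 1298 and 1518 bp. The 3 members that were lower with an adjusted p under 0.1 from limma belong to the short genes with 1 intron, and so do spp-2, which rose, and spp-14, whose groups overlapped. The levels of these short genes depend on how the length of a transcript was corrected for in the FPKM.

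spp-3, spp-2 and spp-5 lie in 1 cluster on chromosome X with the other spp genes spp-6 and spp-4. The 5 genes stand within 5386 bp (7314969 to 7320354), in the order spp-3, spp-2, spp-6, spp-4 and spp-5, and spp-6 alone is on the plus strand. The gaps between neighbors are 641, 522, 526 and 1180 bp, with no other protein-coding gene between them. The cluster held genes that moved in opposite directions. spp-4 (WBGene00004989), which is not among the 10 genes, passed as lower, with 226, 190.0 and 190.5 FPKM in libraries labelled let-607 RNAi, against 485, 501 and 486 FPKM in the control RNAi libraries. Its log2 fold change was -1.28 (SE 0.07, limma adjusted p = 6.4e-05), while that of spp-2 between spp-3 and spp-4 was 1.16. spp-6 was listed at 0 in all 6 libraries.

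Ratios of FPKM within a library do not depend on the scaling between libraries, and they were taken for neighbors of this cluster after the values had been seen, so they are given without a test. The ratio of spp-2 to spp-3 was 0.337, 0.413 and 0.351 in libraries labelled let-607 RNAi, against 0.111, 0.114 and 0.102 in the control RNAi libraries. That of spp-2 to spp-4 was 1.33, 1.61 and 1.39 in libraries labelled let-607 RNAi, against 0.266, 0.273 and 0.254 in the control RNAi libraries, so that spp-2 was above spp-4 in every library labelled let-607 RNAi and below it in every control RNAi library. The ratio of spp-3 to spp-5, at the ends of the cluster, was 0.199, 0.177 and 0.198 in libraries labelled let-607 RNAi, against 0.209, 0.209 and 0.218 in the control RNAi libraries. It was thus lower in every library labelled let-607 RNAi, by a smaller amount than the other ratios moved.

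**Figure D3:**
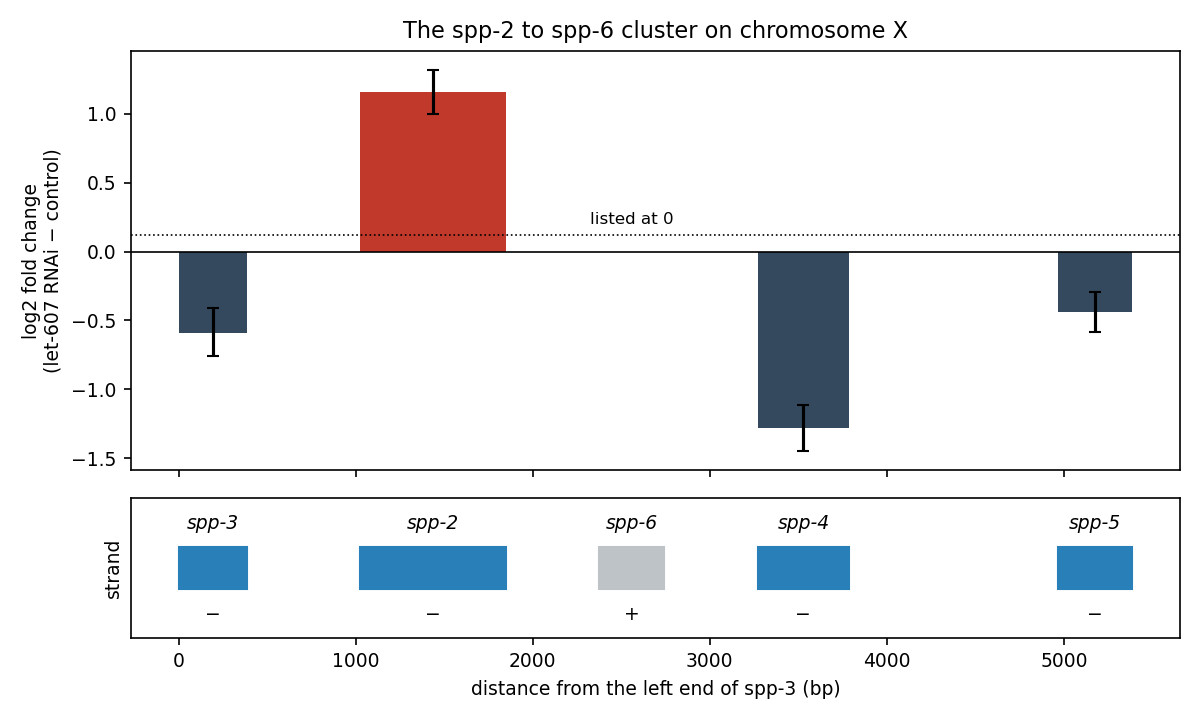
Map of the spp-2 to spp-6 cluster on chromosome X, drawn to scale as the distance in bp from the left end of spp-3, with the strand of each gene below it and the log2 fold change (libraries labelled let-607 RNAi minus control RNAi, 95% interval from limma) above it. spp-2 is at 1.16, between spp-3 at -0.59 and spp-4 at -1.28, spp-6 was listed at 0 and was not tested, and the dotted line is the median of all genes tested.

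The order of the members by level differed between the groups. In the libraries labelled let-607 RNAi, spp-5 and spp-14 came first with ranges that overlapped (3809 to 4495 and 3791 to 3994 FPKM), followed by spp-3, spp-18, spp-2, spp-10, spp-1 and spp-8, each separated from its neighbors. In the control RNAi libraries the order was spp-5, spp-14, spp-3, spp-1, spp-10, spp-18, spp-2 and spp-8, and only spp-18 (112 to 144 FPKM) and spp-2 (124 to 137 FPKM) overlapped with each other. spp-1 thus stood at position 7 in libraries labelled let-607 RNAi and at position 4 in the control RNAi libraries, and spp-18 at positions 4 and 6.

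Summed over the 10 genes, the expression was 10538, 10173 and 9516 FPKM in libraries labelled let-607 RNAi, against 11315, 11836 and 11808 FPKM in the control RNAi libraries, a ratio of means of 0.865. Most of it came from spp-5 and spp-14. spp-5 made up 41.3% ± 1.32 of the sum in libraries labelled let-607 RNAi and 48.2% ± 1.14 in the control RNAi libraries, and spp-14 made up 38.7% ± 1.45 and 33.2% ± 1.22 (SD, n = 3 each). The share of spp-18 was 3.70% ± 0.160 in libraries labelled let-607 RNAi and 1.13% ± 0.120 in the control RNAi libraries, and that of spp-2 was 2.88% ± 0.110 and 1.11% ± 0.0592 (SD, n = 3 each). spp-1 went the other way, with 2.00% ± 0.0467 and 3.11% ± 0.161 (SD, n = 3 each). These shares are parts of 1 sum, so a larger share of one gene lowers those of the rest.

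**Figure D4:**
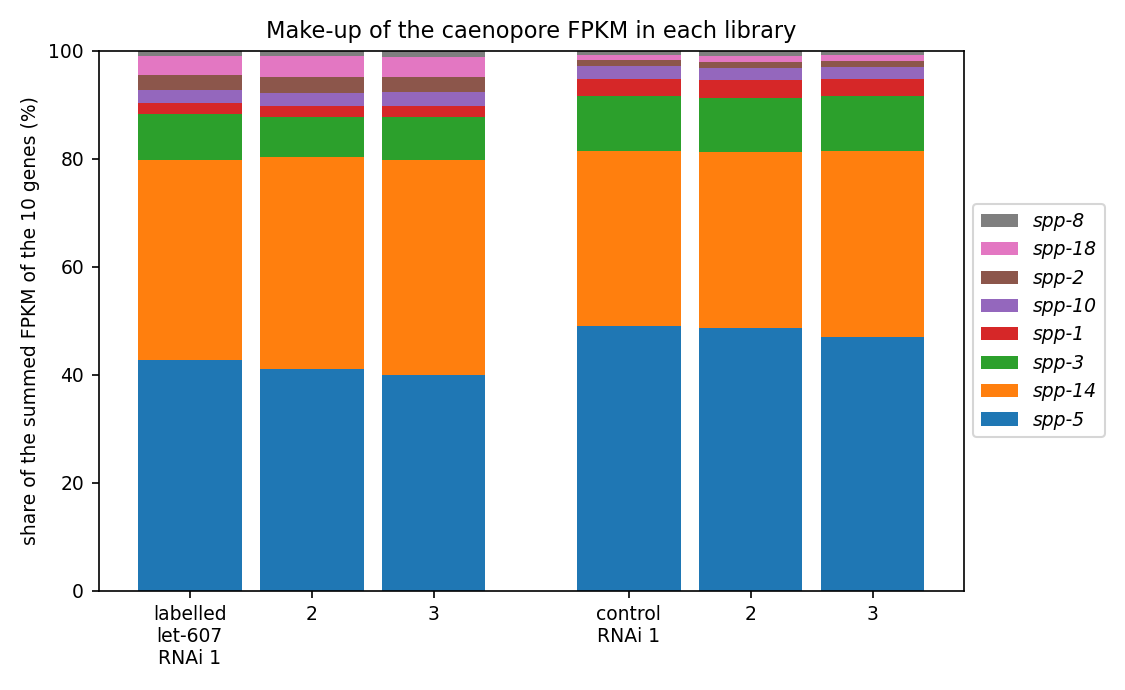
Share of the summed FPKM of the 10 caenopore genes taken by each gene in each library (percent, stacked to 100), with the 3 libraries labelled let-607 RNAi on the left and the 3 control RNAi libraries on the right. spp-9 and spp-12 are too low to be drawn. spp-5 took between 40.0% and 42.7% in libraries labelled let-607 RNAi and between 46.9% and 49.1% in the control RNAi libraries.

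Among the 20 other spp genes, 13 were tested. With limma, 1 passed as lower (spp-4, 7.69%, against 1.40% of all genes tested) and none passed as higher (against 3.75%). At an unadjusted p under 0.05 from limma, 1 was higher (7.69%, against 32.7% of all genes tested) and 5 were lower (38.5%, against 11.8%). At an adjusted p under 0.1 from limma with no minimum fold change, 5 of the 13 (38.5%) were lower, where 11.4% of all genes tested were, and 1 (7.69%) was higher, where 31.7% of all genes tested were. Their median log2 fold change was -0.24, ranging from -1.28 to 0.93. spp-17 and spp-28, which did not pass, were singled out after their values were seen. spp-17 (WBGene00005002, chromosome I from 1016405 to 1017176) was the most abundant of them, with 2402, 2206 and 2187 FPKM in libraries labelled let-607 RNAi, against 3749, 4359 and 4142 FPKM in the control RNAi libraries. It was thus near the level of spp-14 in the control RNAi libraries alone, and below it in every library labelled let-607 RNAi. Its log2 fold change of -0.85 (SE 0.06, limma adjusted p = 0.000204) was close in size to that of spp-1. spp-28 (WBGene00206525, chromosome III) had the largest increase of the 13, with 13.1, 12.1 and 13.3 FPKM in libraries labelled let-607 RNAi, against 7.61, 6.16 and 6.29 FPKM in the control RNAi libraries. Its log2 fold change was 0.93 (SE 0.10, limma adjusted p = 0.000867), and it passed as higher when the first control RNAi library was left out. Over all 30 spp genes the summed expression was 13727, 13168 and 12473 FPKM in libraries labelled let-607 RNAi, against 16136, 17371 and 17069 FPKM in the control RNAi libraries, a ratio of means of 0.778.

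A list of 20 genes of the pathways known to act on intestinal immune genes was examined next, covering insulin signaling to DAF-16, the TIR-1 to PMK-1 cascade, the GATA factor ELT-2, SKN-1, HLH-30 and the DBL-1 BMP-like pathway. Of these, 1 passed as higher (5.0%, against 3.75% of all genes tested) and none as lower (against 1.40%) with limma. At an unadjusted p under 0.05 from limma, 0 were lower (against 11.8% of all genes tested) and 9 were higher (45.0%, against 32.7%). The median log2 fold change of the 20 genes was 0.15. The gene that passed as higher was tir-1, which encodes the SARM adaptor at the head of the PMK-1 cascade. It had 26.0, 28.9 and 27.7 FPKM in libraries labelled let-607 RNAi, against 13.7, 12.3 and 12.7 FPKM in the control RNAi libraries, a log2 fold change of 1.09 (SE 0.07, limma adjusted p = 9.28e-05) and 0.96 relative to the median over all tested genes. tir-1 did not pass after median-of-ratios scaling or quantile normalization, with log2 fold changes of 0.96 and 0.91. The kinase gene pmk-1 had a log2 fold change of 0.17 (limma adjusted p = 0.0738). For daf-16 it was 0.06 (adjusted p = 0.599), for elt-2 0.14 (adjusted p = 0.219) and for dbl-1 -0.03 (adjusted p = 0.859), all from limma, and the groups overlapped for these 3 genes. With no minimum fold change, 9 of the 20 (45.0%) were higher at an adjusted p under 0.1 from limma, where 31.7% of all genes tested were. None was lower, where 11.4% of all genes tested were.

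In bulk samples of whole worms, fewer cells of a type and less RNA per cell cannot be told apart. Of 12 intestine markers, all were detected and tested, and their median log2 fold change was -0.03. With limma, 1 passed as higher (8.33%, against 3.75% of all genes tested) and 1 as lower (8.33%, against 1.40%). At an adjusted p under 0.1 from limma with no minimum fold change, 4 of the 12 (33.3%) were lower, where 11.4% of all genes tested were, and 2 (16.7%) were higher, where 31.7% of all genes tested were. The log2 fold change of 9 of the 12 lay below the median of all genes tested. pgp-1, which encodes a P-glycoprotein transporter, had a log2 fold change of 1.18, and mtl-2, which encodes a metallothionein, had one of -1.24. The summed level of the 12 was between 2360 and 2540 FPKM in libraries labelled let-607 RNAi and between 2437 and 2494 FPKM in the control RNAi libraries, so that the groups overlapped. This sum mostly reflects act-5 alone, with means of 1309 FPKM in libraries labelled let-607 RNAi and 1344 FPKM in the control RNAi libraries. No marker of hypodermis (6 genes), body muscle (6), pharynx (6), neurons (7), germline (6), sperm (6), the adult stage (4) or the molt (5) passed in either direction with limma. At an unadjusted p under 0.05 these 46 genes held 19 that were higher (41.3%, against 32.7% of all genes tested) and 2 that were lower (4.35%, against 11.8%). By list, 5 of the 6 sperm markers were higher (83.3%). So were 3 each of the hypodermis, body muscle, neuronal and germline markers and 2 molt markers. No pharynx or adult stage marker was higher. Without the first control RNAi library the yolk protein genes vit-2 and vit-5, both adult stage markers, passed as higher, with log2 fold changes of 1.69 and 1.75, against 0.98 and 1.20 with all 6 libraries (limma adjusted p = 0.268 and 0.174). Without the second library labelled let-607 RNAi the molting gene mlt-11 passed as higher, with 1.01. The summed levels of the sperm, neuronal, germline and body muscle markers were higher in every library labelled let-607 RNAi than in any control RNAi library. Those of the hypodermis, pharynx, adult stage and molt markers overlapped. The germline gap was narrow, with at least 999 FPKM in libraries labelled let-607 RNAi against at most 987 FPKM in the control RNAi libraries. For body muscle these values were 2625 and 2601 FPKM. Both lists had a median log2 fold change of 0.11, against 0.12 over all genes tested. In each of them 3 markers were higher and 1 was lower without overlap. The summed level of the sperm markers was between 2716 and 2819 FPKM in libraries labelled let-607 RNAi and between 1620 and 1882 FPKM in the control RNAi libraries, with a median log2 fold change of 0.56. For the neuronal markers the sum was between 404 and 417 FPKM in libraries labelled let-607 RNAi and between 317 and 327 FPKM in the control RNAi libraries, with a median log2 fold change of 0.12. Most of this gap came from snb-1, with means of 230 FPKM in libraries labelled let-607 RNAi and 155 FPKM in the control RNAi libraries. The neuronal markers rab-3 and unc-64 were also higher without overlap, and the groups overlapped for unc-119, ric-4, egl-21 and snt-1. The part of stage or tissue make-up in the differences of the caenopore genes was not tested.

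**Figure D5:**
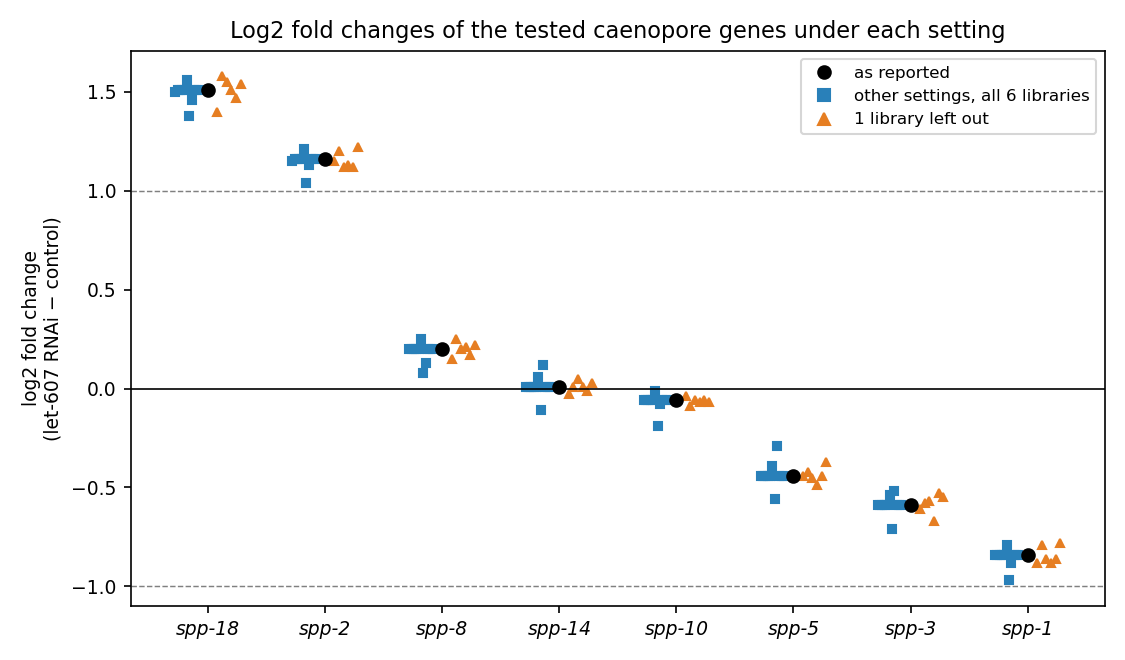
Log2 fold change (libraries labelled let-607 RNAi minus control RNAi) of the 8 tested caenopore genes as reported (black), under 11 other settings with all 6 libraries (blue squares) and with 1 library left out (orange triangles). The dashed lines mark -1 and 1. spp-18 and spp-2 stayed above 1 and spp-1, spp-3 and spp-5 between -1 and 0 in all of them, while spp-14 lay on both sides of 0.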

How the data were processed

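RNA was sequenced from 3 libraries labelled let-607 RNAi and 3 control RNAi libraries, grouped and numbered by their titles. The authors deposited FPKM per gene and library, rounded to 2 decimals. The study's methods name TopHat and Cufflinks on WBcel235 with a stranded kit, while the submitters' processing notes name fastp, HISAT and RSEM on WBcel235, so which tools gave these FPKM is uncertain. They hold no counts, so depth is unknown and precision comes from the spread between libraries. Nothing says that the replicates were separate cultures, so p-values measure only the spread between these libraries.

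Of 48197 lines, 1 was broken and 1418 repeated an earlier gene, which left 46778 genes. Ensembl annotation release 115 (WBcel235) held 46603 of them and gave symbols and coordinates. limma 3.58.1 in R 4.3.3 (lmFit, eBayes with a trend) was run on log2(FPKM + 0.1) without covariates for genes averaging 0.5 FPKM or more, and adjusted over 15453 genes. On simulated data of 15453 genes the fit recovered 96 of 100 changes of 1.5 and 97 of 100 changes of 2.5 on the log2 scale, with 18 false calls. The simulated noise was normal with an SD set by expression level alone, and no other genes changed. It therefore checks that the fit runs as intended and says nothing about the calls in these data. Python 3.11.15, pandas 2.3.3, numpy 2.4.6 and matplotlib 3.10.9 did the rest.

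All 10 members, other spp genes that passed, let-607, and passing genes of the lists (with daf-16, pmk-1, elt-2 and dbl-1) were named by rule. Members and lists were chosen with earlier results of these data known. Alternatives were pseudocounts of 1 and 0.01, no filter, means of at least 1 and 5 FPKM, rescaling to TPM, median-of-ratios and quantile scaling, a replicate block, eBayes without trend or with a robust trend, leaving out each library, and for counts other thresholds. Sequences of the genes were not used here.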

Additional observations from a re-analysis of the deposited data

How the results depend on the processing

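Of 136 recomputed log2 fold changes of the 8 tested members, 133 kept their direction and their call by both thresholds together and 3 turned in sign, all of them of spp-14, which was at 0.01. It was -0.11 after median-of-ratios scaling (adjusted p = 0.123 from limma) and between -0.03 and 0.05 with 1 library left out, below 0 without the first control RNAi library and without the second library labelled let-607 RNAi. The cause was not tested. The adjusted p taken alone crossed 0.1 for spp-8 (0.0446 as reported, 0.408 after median-of-ratios scaling, 0.187 with quantile normalization, and 0.107 and 0.137 with 1 library left out), for spp-10 (0.241 as reported, 0.0102 after median-of-ratios scaling) and for spp-14 (0.872 as reported, 0.078 with quantile normalization). With an absolute log2 fold change above 2 required, 0 members, 0 other spp genes and 0 listed regulators or markers passed in either direction, and 204 of all genes passed as higher and 56 as lower. With no minimum fold change at an adjusted p under 0.1 from limma, 3 members passed as higher and 3 as lower. Among the other spp genes 1 passed as higher and 5 as lower, and among the listed genes 30 as higher and 6 as lower. Of all genes tested, 4892 (31.7%) then passed as higher and 1759 (11.4%) as lower. A mean of at least 5 FPKM, which tests fewer genes, left 275 as higher and 124 as lower. After quantile normalization 2 other spp genes passed as lower, and 1 listed gene, pgp-1, passed as higher after either quantile normalization or median-of-ratios scaling, while tir-1 did not. With 1 library left out, between 0 and 1 other spp genes and between 2 and 4 listed genes passed as higher, and the 1 and the 4 came without the first control RNAi library, where vit-2 and vit-5 joined tir-1 and pgp-1. Over all genes tested, the deviations of same-numbered libraries were not correlated (-0.0581, 0.00284 and -0.0179). The adult stage markers vit-2, vit-5, vit-6 and col-19, looked at afterwards, differed from this. Each was highest in the first and lowest in the second library of both groups. A fit with the replicate number as a block gave 1.16 for spp-2 and 1.51 for spp-18, with 2 members higher and 0 lower as before. In that fit vit-5 passed as higher (1.20, limma adjusted p = 0.0707), and vit-2 was at 0.98 (limma adjusted p = 0.0593). Depth is unknown, so the precision of values near 0, such as those of spp-9, cannot be given.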
